A study of Mus musculus with 12 samples.

Results

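Potassium channels are the most diverse family of ion channels. They let potassium leave or, for the inward rectifiers, enter the cell, and so set the resting potential and end electrical activity. In peripheral nerve the voltage-gated channels are best known from the axon, where they cluster beside the nodes under the myelin sheath, whereas glia are known for inwardly rectifying channels that take up the potassium released by firing axons. Schwann cells, the glia of the sciatic nerve, change their potassium currents as they develop, and the genes behind those currents are described here in sorted cells of the newborn nerve.

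The protein-coding genes of the mouse count table whose symbol begins with Kcn were taken, 94 of 25700 listed genes. They comprised 30 pore subunits of voltage-gated channels, 23 auxiliary or silent subunits of those channels, 15 inward rectifiers, 14 two-pore-domain channels and 12 calcium- or sodium-activated channels with their beta subunits. The name is a nomenclature rule and used no measured value.

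The libraries were made from sciatic nerves of C57bl/6J mice on postnatal day 5, for each gate from 2 males and 2 females. All animals carried a Cre driven by a promoter of the Schwann cell lineage, an eYFP reporter in Rosa26 behind a floxed stop and a ubiquitous DsRed under the beta-actin promoter, so that eYFP marked cells that had expressed Cre at any time. The cells were sorted through 3 gates: all eYFP-positive cells (allSC), the cells with high side scatter, enriched in myelinating Schwann cells (mSC), and the cells with low side scatter, enriched in cells that do not myelinate (nmSC). The allSC gate therefore contained the populations of the other two gates, and the gates differ by scatter rather than by a marker. Each gate had 4 libraries, and the labels give them a subject number, 1 to 4, that is shared between gates and not tied to a sex. Counts per library ranged from 8180927 to 16918122. One library, mSC replicate 4, stood apart from its gate: a chi-square test of its counts against each other mSC library gave 50.6 to 95.7 per degree of freedom, where the other pairs within gates gave 4.03 to 22.1. Sox10, the defining transcription factor of the lineage, was at 267 ± 102, 267 ± 97.4 and 266 ± 49.6 CPM (read counts scaled to a common library size, SD, n = 4) in allSC, mSC and nmSC.

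What the pore-forming members share is the selectivity filter, a short loop that strips potassium of its water and in most families carries the residues glycine, tyrosine and glycine. A pattern of the codons for this loop, AC and then 4 further bases and GGNTANGGN, all read in frame, was found in the coding sequence of 57 of the 94 genes (60.6%), against 116 of 21562 genes with a coding transcript (0.538%). It was in all 8 genes of the Kv1 subfamily, all 5 of Kv7 and all 10 silent subunits, and in none of the 17 auxiliary subunits, which sit beside a pore and form none. The EAG, ERG and ELK channels use a phenylalanine codon in place of tyrosine: GGNTTNGGN was in frame in all 8 of them, and in 11 of the 14 two-pore-domain genes, whose subunits carry a pair of pore loops each. This shorter pattern is far less specific, since its middle codon can also encode leucine, and 2612 of the 21562 genes (12.1%) held it. The loops of 6 members that the results below turn on are printed from the GENCODE M21 coding sequences (GRCm38), 5′ to 3′ on the coding strand, so that the shared core can be compared, with the glycine, tyrosine or phenylalanine, and glycine codons in capitals.
Kcna1, chr6:126642216-126642254, minus strand: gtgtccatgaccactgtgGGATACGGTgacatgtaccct
Kcna2, chr3:107105212-107105250, plus strand: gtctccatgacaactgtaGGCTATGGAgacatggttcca
Kcna6, chr6:126738635-126738673, minus strand: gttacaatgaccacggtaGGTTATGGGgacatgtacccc
Kcnh8, chr17:52877985-52878017, plus strand: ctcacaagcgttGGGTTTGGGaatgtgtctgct
Kcnk1, first loop, across an intron on chromosome 8: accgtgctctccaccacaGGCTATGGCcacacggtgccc
Kcnk5, first loop, across an intron on chromosome 14: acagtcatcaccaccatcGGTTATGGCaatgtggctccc
Kcnk5, second loop, chr14:20144636-20144668, minus strand: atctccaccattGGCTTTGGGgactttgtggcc

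Most potassium channel genes were at the level of genes that nerve has no use for. Olfactory and vomeronasal receptor genes, 1452 in the table, were taken as that background, and a channel gene was counted as above it when its mean RPKM (CPM divided by the kilobases of exon, n = 4) exceeded the 95th percentile of the receptors in the same gate, which was 0.663 in allSC, 0.513 in mSC and 0.739 in nmSC. By this measure 22 of 94 genes were above background in allSC, 20 in mSC and 19 in nmSC, and with the mean transcript length in place of the merged exons the counts were 31, 31 and 28. In all, 24 genes passed in some gate, 17 in every gate and 70 in none. Of the 24, 15 encode a pore and the rest an auxiliary subunit. The subfamilies were unevenly represented: 4 of 8 Kv1 genes, 2 of 5 Kv7, 2 of 8 EAG, ERG and ELK, 3 of 15 inward rectifiers, 3 of 14 two-pore-domain genes, 1 of 4 small- and intermediate-conductance channels, 1 of 4 BK beta subunits, all 3 Kv beta subunits, 2 of 4 KChIPs, 2 of 5 of the MinK family and the regulator Kcnrg. None of the Kv2, Kv3, Kv4 or silent subunits passed, nor did the BK, Slack and Slo3 pores.

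**Figure D1:**
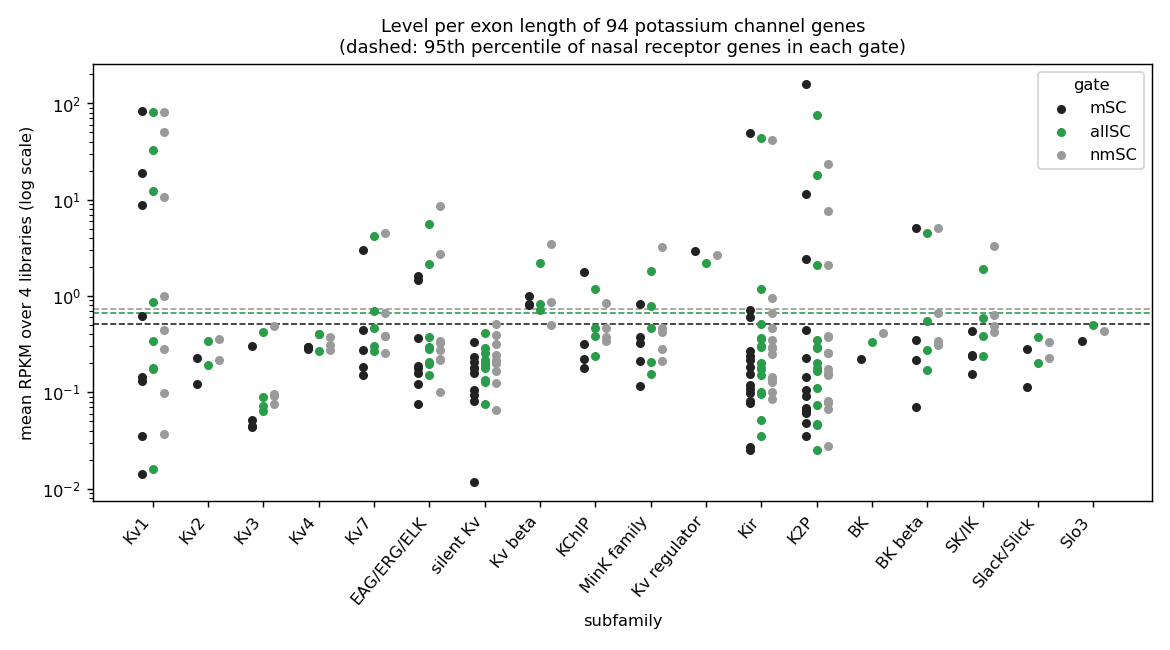
Mean RPKM over 4 libraries (log axis) of the 94 potassium channel genes, arranged by subfamily, with 1 point per gene and gate and dashed lines at the background level of each gate (0.513, 0.663 and 0.739 RPKM in mSC, allSC and nmSC). A few genes of the Kv1, inward rectifier and two-pore-domain subfamilies lie far above the lines, and 70 genes lie below them in every gate.

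The levels were concentrated in a handful of genes. Per exon length the order in allSC was Kcna1 (81.2 RPKM), Kcnk1 (75.5), Kcnj10 (43.3), Kcna6 (32.6), Kcnk5 (18.1) and Kcna2 (12.3), and no other member reached 6 RPKM. In mSC Kcnk1 came first at 161 RPKM, followed by Kcna1 at 83.1 and Kcnj10 at 49.6. In nmSC Kcna1 came first at 81.2 RPKM, followed by Kcna6 at 51.1 and Kcnj10 at 41.8, and Kcnk1 was at 7.55. The 94 genes together held 0.111 to 0.177% of the counts of a library.

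Not all neighbours of the abundant genes were expressed. Kcna1 and Kcna6 lie in a row with Kcna5 on chromosome 6 (126532551 to 126740674, GRCm38), and Kcna5 was at 0.174, 0.0355 and 0.0993 RPKM in allSC, mSC and nmSC, under background in each. Kcna2 lies between Kcna3 and Kcna10 on chromosome 3, and those genes reached at most 0.447 and 0.283 RPKM in any gate. Kcnj9, which is next to Kcnj10 on chromosome 1, reached at most 0.145 RPKM.

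The comparison of mSC with nmSC asks how the channel genes differ between cells that build myelin and cells that do not. Of the 94 genes 75 had enough counts to be tested, and the other 19 had at most 0.872 CPM on average in any gate. At an adjusted p under 0.05 (edgeR's quasi-likelihood test, Benjamini-Hochberg over 18597 genes), 6 were higher in mSC and 24 higher in nmSC, so that 40.0% were called, close to the 40.5% of all tested genes. The direction was less balanced than among all genes, where 20.4% were higher in mSC and 20.1% higher in nmSC: among the channel genes the shares were 8.0% and 32.0%. The median log2 fold change of the 75 was -0.63, against -0.16 for all tested genes. The receptor genes had a median of -0.72 and were called higher in nmSC in 16.5% of 1012 and higher in mSC in none. The pooled level of the receptor genes per library was 0.188 to 0.229 RPKM in mSC and 0.246 to 0.390 in nmSC. The 51 tested channel genes under background had a median of -0.69, with 2 higher in mSC and 14 higher in nmSC. Among the 24 genes above background 4 were higher in mSC, 10 higher in nmSC and 10 not called, with a median of -0.52. The share called higher in nmSC was 41.7% above background and 27.5% under it. A gene could enter the first set through the gate where it was high, so nothing can be read from the gap between these shares.

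The split also moved with the scaling. Of the calls, 80.0% were higher in nmSC with TMM factors, 91.7% (3 against 33) when the 50 most abundant genes were left out of the library size and 96.0% (2 against 48) with library size alone, and among all genes the same share went from 49.7% to 78.8% and 87.8%. The median of all genes moved from -0.16 to -0.52 and -0.73 on the log2 scale. A change of scaling shifts all log2 fold changes by nearly the same amount, so each named gene kept its distance to that median to within 0.05. In bulk libraries a lower share of cells that express a gene and less of its RNA per cell cannot be told apart.

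**Figure D2:**
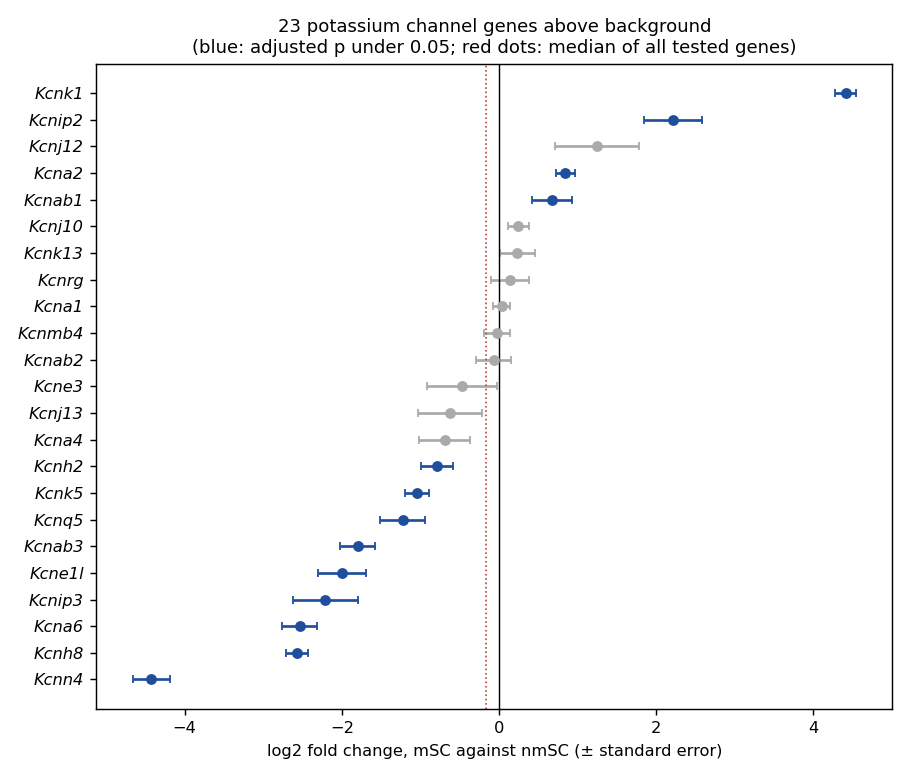
Log2 fold change between mSC and nmSC, with its standard error, of 23 potassium channel genes above background in some gate. Blue points passed the test (4 to the right, 9 to the left) and grey points did not, and the red dotted line is the median of all tested genes at -0.16. The grey points of Kcna1, Kcnj10, Kcnrg, Kcnk13, Kcnmb4 and Kcnab2 changed sign under another scaling, filter or choice of libraries.

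Kcnk1 encodes a weakly inwardly rectifying two-pore-domain channel, a leak channel that holds the membrane near its resting potential. It was at 341, 365, 339 and 391 CPM in the 4 mSC libraries, at 164, 158, 174 and 179 in allSC and at 19.0, 14.0, 16.4 and 18.0 in nmSC. The gates did not overlap, and every mSC library was above every allSC library, which was above every nmSC library. The level was 21.3-fold higher in mSC than in nmSC (log2 fold change 4.41, standard error 0.14, edgeR adjusted p = 4.54e-14), and 22 of the tested genes had a larger fold change in that direction. This gene (chr8:125995170-126030685, plus strand) overlaps the annotated gene Gm45875.

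The other two-pore-domain genes above background did not share this pattern. Kcnk5, an alkaline-activated leak channel, was at 40.0, 40.5, 48.6 and 26.8 CPM in mSC, 64.6, 63.5, 55.9 and 62.7 in allSC and 67.5, 81.5, 93.0 and 79.9 in nmSC. All nmSC libraries were above all mSC libraries, with the lowest value in mSC replicate 4, and the gene was 2.06-fold higher in nmSC (edgeR adjusted p = 2.78e-05). Without mSC replicate 4 the log2 fold change was -0.90 instead of -1.04. Kcnk13, a channel inhibited by halothane and present in microglia, was at 7.61 ± 1.55 CPM in mSC and 6.48 ± 1.84 in nmSC (SD, n = 4). Its libraries overlapped (log2 fold change 0.23, standard error 0.22, edgeR adjusted p = 0.408). Kcnk10, a mechano-gated channel, was under background per length but higher in nmSC (log2 fold change -1.79, standard error 0.35, edgeR adjusted p = 0.00046). Kcnk4 and Kcnk6, chosen here after their values were seen, were also under background and higher in mSC, at log2 fold changes of 1.46 (adjusted p = 0.0226) and 1.36 (adjusted p = 0.0285). Kcnk4 kept its call in 15 of 18 alternative settings and Kcnk6 in 13 of 19, and the mSC and nmSC libraries of Kcnk6 overlapped. Of the 8 tested two-pore-domain genes 3 were higher in mSC (37.5%, against 20.4% of all tested genes) and 4 in nmSC (against 20.1%). The total called was 87.5%, against 40.5% of all genes.

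Among the Kv1 genes, whose products are the delayed rectifiers of the juxtaparanodal axon, 3 abundant members behaved differently from each other. Kcna1 was at 375, 414, 423 and 378 CPM in mSC, 375, 351, 395 and 432 in allSC and 367, 352, 415 and 420.1 in nmSC. The gates overlapped, and mSC differed from nmSC by 0.03 on the log2 scale with a standard error of 0.11 (edgeR adjusted p = 0.829), but it was -0.53 (adjusted p = 0.000361) with library size alone and -0.33 (adjusted p = 0.0120) without the 50 top genes. Kcna2 was at 243, 235, 216 and 220.4 CPM in mSC, 152, 136, 155 and 144 in allSC and 141, 111, 111 and 146 in nmSC. Its mSC libraries lay above all others, 1.80-fold over nmSC (log2 fold change 0.84, standard error 0.12, edgeR adjusted p = 1.65e-05), while allSC and nmSC overlapped; with library size alone the call was lost (log2 fold change 0.28, adjusted p = 0.0576).

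Kcna6 went the other way. It was at 66.1, 61.8, 56.2 and 24.9 CPM in mSC, 182, 192, 200 and 202 in allSC and 244, 276, 390.1 and 306 in nmSC, again without overlap between gates. It was 5.79-fold higher in nmSC than in mSC (log2 fold change -2.53, standard error 0.22, edgeR adjusted p = 2.39e-08). The lowest value was that of mSC replicate 4, and without that library the log2 fold change was -2.30. Kcna6 (chr6:126708329-126740674, minus strand) overlaps Gm26673. Kcna4, of the A-type current and chosen after its values were seen, stood just above background in each gate with overlapping libraries (log2 fold change -0.69, standard error 0.33, adjusted p = 0.0975).

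**Figure D3:**
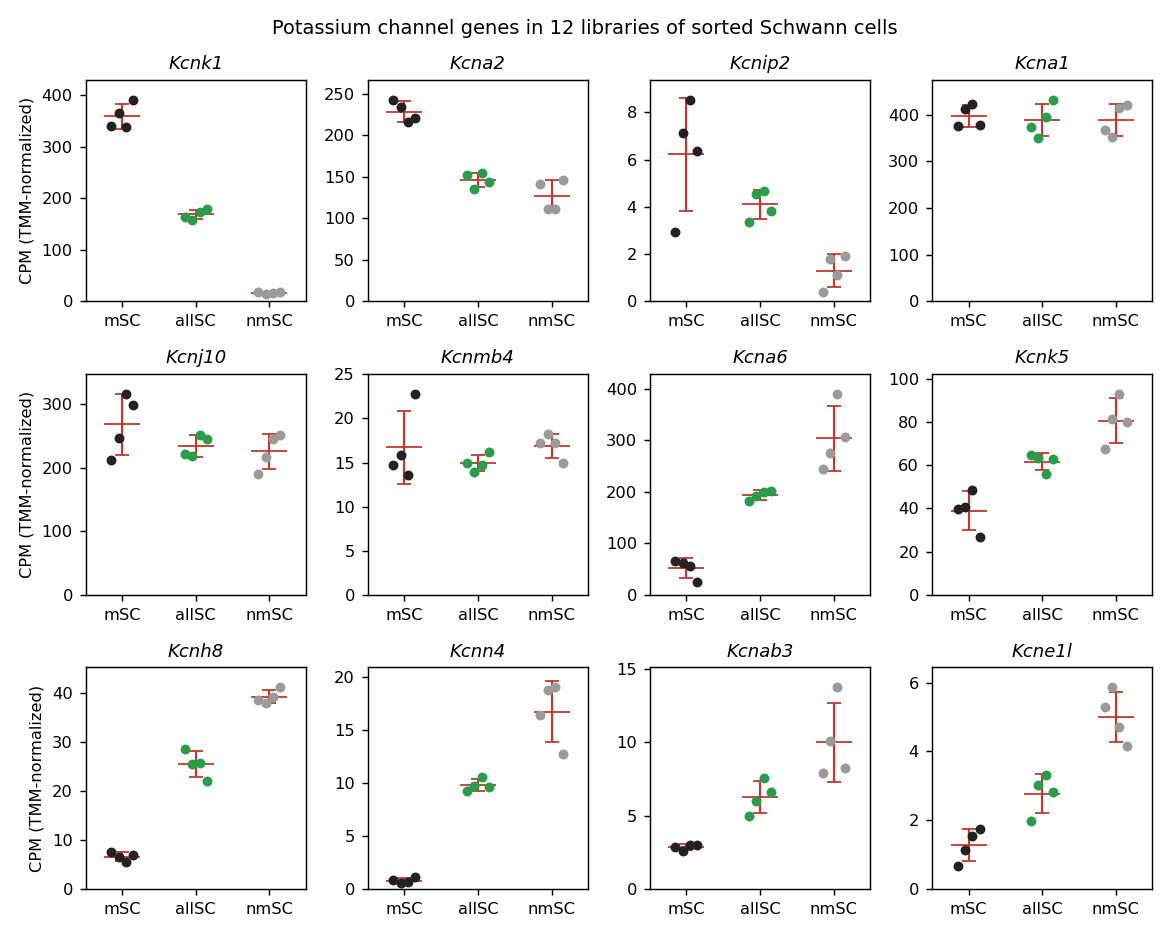
CPM of 12 potassium channel genes in the 12 libraries by gate (points), with the mean and SD of the 4 libraries in red and linear axes from 0. Kcnk1, Kcna2 and Kcnip2 passed the test as higher in mSC, the genes from Kcna6 to Kcne1l as higher in nmSC, and Kcna1, Kcnj10 and Kcnmb4 did not pass it, their direction depending on the scaling.

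The remaining voltage-gated pores were less abundant and lower in mSC where they were called. Kcnh8, an ELK-type channel that opens at low voltages, was at 7.46, 6.51, 5.51 and 6.98 CPM in mSC, 28.5, 25.5, 25.7 and 22.01 in allSC and 38.7, 38.1, 39.2 and 41.2 in nmSC. The gates were clearly apart, and the gene was 5.93-fold higher in nmSC than in mSC (log2 fold change -2.57, standard error 0.14, edgeR adjusted p = 4.90e-11). Kcnh2, the cardiac ERG channel, named after its values were seen, was at 13.3 ± 0.60 CPM in nmSC and 7.78 ± 2.27 in mSC (log2 fold change -0.79, standard error 0.21, adjusted p = 0.0051).

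Kv7 channels carry the M-current, which restrains repetitive firing, and are found at nodes. Kcnq5 was at 3.39, 2.34, 1.32 and 1.496 CPM in mSC and 6.43, 6.12, 3.81 and 4.22 in nmSC (log2 fold change -1.22, adjusted p = 0.00214). Per length it was above background in allSC alone, and under it in mSC and nmSC. Kcnq3 was under background per length and not called (log2 fold change -0.48, standard error 0.25, adjusted p = 0.127).

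Inward rectifiers were represented almost solely by Kcnj10, the main channel of glial potassium uptake. It was at 212, 246, 316 and 298 CPM in mSC, 221, 218, 252 and 245 in allSC and 191, 216, 245 and 251 in nmSC. The gates overlapped, although mSC was above nmSC in all 4 same-numbered pairs, and the log2 fold change of 0.25 (standard error 0.14) had an edgeR adjusted p of 0.152; it was -0.32 (adjusted p = 0.0251) with library size alone and -0.12 without the 50 top genes. Leaving out mSC replicate 1 gave 0.36 and an adjusted p of 0.0397. Kcnj12, a strong rectifier, was at 1.29, 1.65, 2.95 and 1.99 CPM in mSC and 0.0960, 0.934, 1.19 and 0.988 in nmSC. Its mSC libraries were all above its nmSC libraries (log2 fold change 1.25, standard error 0.53, adjusted p = 0.069), and with the subject number as a block the adjusted p was 0.0159. Kcnj13, of transporting epithelia, lies inside Gigyf2, so that its reads may not be separable, and was not called (log2 fold change -0.63, standard error 0.41, adjusted p = 0.222). Of the 11 tested inward rectifiers none was higher in mSC, against 20.4% of all tested genes. The 3 that were higher in nmSC (27.3%, against 20.1%) were all under background.

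Among the calcium-activated channels Kcnn4 stood out. It encodes the intermediate-conductance channel that calmodulin opens, known from immune and red blood cells. Its level was 0.814, 0.521, 0.698 and 1.12 CPM in mSC, 9.24, 9.76, 10.5 and 9.65 in allSC and 16.4, 18.8, 19.0 and 12.8 in nmSC, while 3 counts corresponded to 0.198 to 0.374 CPM. No gate overlapped another, and mSC was under background. It was 21.5-fold higher in nmSC than in mSC (log2 fold change -4.43, standard error 0.23, edgeR adjusted p = 2.09e-11), and 10 tested genes had a larger change in that direction. Immune cells are a known source of this channel. The 8 immune markers summed to 39.9 to 49.1 CPM in allSC, 22.7 to 30.5 in mSC and 49.1 to 57.3 in nmSC. Of the 7 tested 2 were higher in nmSC (28.6%, against 20.1% of all tested genes) and none in mSC (against 20.4%). The 2 were Kit (means of 17.6, 5.44 and 25.4 CPM) and Cd68, while Csf1r was at 11.4, 11.5 and 11.6 CPM. Aif1 was at 0 in all mSC libraries and averaged 0.17 CPM in each of the other gates. Their part in the result was not tested.

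The BK channel pore Kcnma1, which both voltage and calcium open, was at 3.26, 3.47, 3.72 and 4.61 CPM in mSC and 7.78, 7.56, 6.49 and 6.19 in nmSC. The libraries did not overlap (log2 fold change -0.90, standard error 0.20, edgeR adjusted p = 0.00141), but its level per length was under background. Its subunit Kcnmb4, the beta subunit of neural BK channels, was at 4.50, 5.04 and 5.09 RPKM in allSC, mSC and nmSC, where Kcnma1 was at 0.330, 0.222 and 0.413. Kcnmb4 was at 14.7, 15.9, 13.6 and 22.8 CPM in mSC and 17.2, 18.3, 17.2 and 15.01 in nmSC. The highest value was that of mSC replicate 4, and the log2 fold change was -0.02 (standard error 0.16, adjusted p = 0.925) with it and -0.19 without it. Kcnmb3 was close to the floor and not called (adjusted p = 0.168). Of the 12 genes of the class 5 were higher in nmSC (41.7%, against 20.1% of all tested genes) and none in mSC (against 20.4%). The total called, 41.7%, was close to the 40.5% of all genes. Above background were 2 of the 12.

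The auxiliary subunits included genes on each side. Kcnip2, the calcium-binding partner of Kv4 channels, was at 2.92, 7.12, 8.53 and 6.36 CPM in mSC, 3.35, 4.55, 4.69 and 3.82 in allSC and 0.384, 1.78, 1.12 and 1.91 in nmSC. Its mSC libraries were above its nmSC libraries (log2 fold change 2.22, standard error 0.37, edgeR adjusted p = 9.12e-05), while none of the Kv4 pores was above background. Of the Kv beta subunits, which bind the inner face of Kv1 channels, Kcnab3 was at 2.85, 2.604, 3.03 and 2.99 CPM in mSC and 7.87, 10.1, 13.7 and 8.23 in nmSC, 3.48-fold higher in nmSC (adjusted p = 2.32e-06). Kcnab1 was at 6.58, 8.25, 6.44 and 6.36 CPM in mSC and 3.65, 5.61, 3.58 and 4.41 in nmSC; these did not overlap, and the call as higher in mSC (log2 fold change 0.68, standard error 0.25, adjusted p = 0.0404) held in 11 of 20 alternative settings. It was lost with the subject number as a block (adjusted p = 0.0593) and when only library size was scaled for (0.12 on the log2 scale, adjusted p = 0.70). The call was also lost without the 50 top genes (log2 fold change 0.32) and with a filter of at least 50 counts in 4 libraries. Leaving out mSC replicate 2 or 3 or nmSC replicate 1, 3 or 4 lost it too (highest adjusted p = 0.104, without mSC replicate 2). Kcnab2 averaged 4.58 to 4.85 CPM in the gates and was not called (log2 fold change -0.07, standard error 0.22, adjusted p = 0.819). The 3 Kv beta genes overlap other annotated genes, Kcnab2 among them with Nphp4.

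Kcne1l, an X-linked member of the MinK family of single-span subunits, was at 0.678, 1.13, 1.55 and 1.75 CPM in mSC and 5.28, 5.86, 4.70 and 4.15 in nmSC. The libraries did not overlap (log2 fold change -1.996, standard error 0.30, edgeR adjusted p = 2.85e-05). Kcnip3, named after its values were seen, was above background in nmSC alone and higher there than in mSC (log2 fold change -2.21, standard error 0.41, adjusted p = 0.000267). Kcnrg, a cytoplasmic regulator of voltage-gated channels that overlaps Dleu2, was at 5.37 ± 1.47 CPM in mSC and 4.89 ± 1.29 in nmSC and not called (adjusted p = 0.663). Of the 20 tested auxiliary and silent genes 2 were higher in mSC (against 20.4% of all tested genes), 3 in nmSC (against 20.1%) and 15 were not called. The total called, 25.0%, was below the 40.5% of all genes.

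Summed per exon length, the classes made up different shares of the channel RNA in each gate. Voltage-gated pores were 33.0 ± 2.40% of the summed RPKM of the 94 genes in mSC, 46.3 ± 0.57% in allSC and 60.0 ± 1.18% in nmSC (SD, n = 4). Two-pore-domain genes were 47.6 ± 1.80%, 31.1 ± 0.59% and 12.7 ± 0.38%. Inward rectifiers were 14.2 ± 2.02%, 15.1 ± 0.49% and 16.6 ± 0.81%. The sums follow Kcnk1, Kcna1, Kcna6 and Kcnj10, and no test was made on them.

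**Figure D4:**
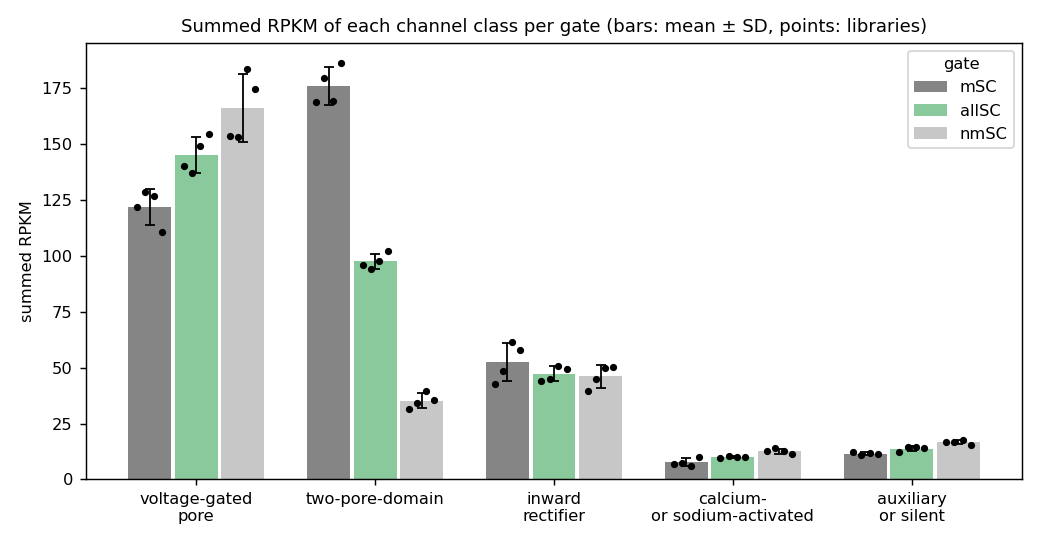
Summed RPKM of each class of potassium channel genes in mSC, allSC and nmSC (bars: mean of 4 libraries, error bars: SD, points: libraries; axis from 0). The two-pore-domain sum went from 35.3 in nmSC to 97.5 in allSC and 176 in mSC, and the voltage-gated sum from 166 to 145 and 122.

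The allSC libraries show where the unsplit population lay. Compared with mSC, 12 of the 75 genes were higher in allSC (16%, against 8.8% of all genes) and 2, Kcna2 and Kcnk1, higher in mSC (2.67%, against 8.76%). In both directions together that was 18.7%, against 17.6% of all genes. Compared with nmSC, 2 genes, Kcnip2 and Kcnk1, were higher in allSC (2.67%, against 7.55% of all genes) and 3, Kcnab3, Kcnh8 and Kcnn4, higher in nmSC (4.0%, against 2.82%). In both directions together that was 6.67%, against 10.4% of all genes. These contrasts share libraries with each other and with the contrast of mSC and nmSC. Of the 30 genes called between mSC and nmSC, the allSC mean lay between the means of the other gates in 29, Kcnq5 being the exception. Those genes were chosen for a gap between the outer gates, and over all 75 tested genes it did so in 51 (68.0%), against 69.5% of all genes. On the way from the nmSC to the mSC mean, allSC stood at 44.4% for Kcnk1, 43.7% for Kcna6, 43.6% for Kcnn4, 42.4% for Kcnh8 and 45.3% for Kcnk5. It stood at 52.0% for Kcnab3 and 56.8% for Kcnip2, but at 19.1% for Kcna2.

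Of the 30 called genes, 26 moved one way in each of the 4 same-numbered pairs and 26 had ranges that did not overlap. Counted over all 75 tested genes, ranges did not overlap in 30 (40.0%, against 34.2% of all genes). In 7 of the 75 genes mSC was above nmSC and in 23 below it. Of all genes 16.8% had mSC above and 17.4% had it below, a more even split. Across the alternatives that could be computed 18 of the 30 kept their call in every one. Of these, 11 were above background in some gate: Kcna6, Kcnab3, Kcne1l, Kcnh2, Kcnh8, Kcnip2, Kcnip3, Kcnk1, Kcnk5, Kcnn4 and Kcnq5.

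Other genes of potassium handling were read against the shares of all tested genes, 20.4% higher in mSC and 20.1% in nmSC. Of 13 tested genes of the sodium-potassium pump 3 were higher in mSC (23.1%) and 5 in nmSC (38.5%). Those higher in mSC included the beta subunit Atp1b3 (935 ± 189 CPM in mSC, 317 ± 58.3 in nmSC; log2 fold change 1.56, edgeR adjusted p = 8.98e-08) and the regulator Fxyd6 (log2 fold change 2.39, adjusted p = 1.95e-10). Of 7 cation-chloride cotransporters, which carry potassium with chloride, 3 were higher in mSC (42.9%) and 1 in nmSC (14.3%). Those higher in mSC were led by the inward carrier Slc12a2 (log2 fold change 1.36, edgeR adjusted p = 2.80e-07). Of 18 tested partners that anchor or modulate channels 1 was higher in mSC (5.56%) and 11 in nmSC (61.1%). The gene higher in mSC was Adam22 (log2 fold change 0.81). Those higher in nmSC included Lgi1 (log2 fold change -2.07) and Adam23 (log2 fold change -2.49), which form a complex around Kv1 channels in neurons. Of the 11, only Lgi1 and Adam23 were above background in any gate. Of the 21 partners listed, 6 were above background in some gate.

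Markers of other cells moved between the gates as well. Summed over a list per library, endothelial markers were at 51.8 to 74.2 CPM in mSC and 17.7 to 28.2 in nmSC. That sum was mostly Kdr and Egfl7, the 2 of 6 tested that were higher in mSC. Pecam1, Flt1 and Tek were higher in nmSC but under background per length in every gate. The median log2 fold change of the 6 was -1.04. Fibroblast markers were at 439 to 1035 and 2926 to 4105, nearly all of it Col1a1, the only one of 7 that was called. Perineurial markers were at 136 to 216 and 204 to 338, mostly Itgb4 (means of 127 and 206 CPM). Itgb4 and Cldn1 were higher in nmSC, whereas Slc2a1 was higher in mSC (means of 56.8 and 36.9 CPM). Lypd2, which was not tested, was at 0 in all mSC libraries and averaged 0.24 CPM in nmSC. Skeletal muscle markers were at 2.48 to 5.48 and 8.30 to 12.7, with none of the 6 above background in any gate. Mural markers were at 41.5 to 49.7 and 36.4 to 47.7 CPM, with Tagln higher in mSC and Cspg4 and Myh11 higher in nmSC. Myh11 was under background in every gate. Neuronal markers were at 21.9 to 33.0 and 29.8 to 30.8, with Nefh higher in mSC and Scn9a and Rbfox3 higher in nmSC. Rbfox3 was under background in every gate. The similar mural and neuronal sums thus held members that went each way. Potassium channels are known from most of these cells, and the part of such cells in the values above was not tested.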

How the data were processed

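RNA of sorted Schwann cells was amplified with Smart-Seq2 and sequenced on an Illumina instrument in 12 libraries. The authors trimmed and aligned reads with STAR 2.6.1c (build GRCm38.p5 in the submitters' processing notes) and counted them per gene with featureCounts; the deposited values are raw counts, and whether strand was used is not given in the sources used here. Libraries were grouped by gate. Names, exon lengths and coordinates came from GENCODE M21, which matched 25664 of 25700 IDs. CPM used TMM factors, and RPKM is that CPM per kilobase of merged exon. edgeR 4.0.16 (R 4.3.3, limma 3.58.1) was fitted over all 12 libraries, with filterByExpr and glmQLFit, and checked on simulated data; DESeq2 1.42.0 was an alternative. The smallest totals give the least precise values, and p-values rest on 4 libraries a gate. The labels give libraries of the 3 gates the same subject numbers, which were taken as the pairing; the correlation of same-numbered deviations was -0.0794 to 0.153, and a fit with this block was an alternative. Named genes were the 3 highest of each class by RPKM, up to 8 called genes per direction (mean of at least 2 CPM, same direction in 4 pairs) and a list of nerve and glial channels, 24 in all. Members, lists and the receptor background were chosen with earlier results of these data known. Some of these genes, and some of their sequences, are not reported here.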

Additional observations from a re-analysis of the deposited data

Results flagged for a closer look

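Of 72 gate groups of the named genes, 4 had a library whose gap to its nearest neighbour took most of the range of the 4 libraries, a pattern that chance gives in about 1 in 20 groups. Kcnab1 was at 8.25 CPM in mSC replicate 2 and at 6.36 to 6.58 in the other mSC libraries. Kcnk10 was at 1.76 CPM in mSC replicate 1 and at 0.543 to 0.748 in the others. Kcnk13 was at 3.74 CPM in nmSC replicate 1 and at 7.05 to 7.69 in the others. Kcnq3 was at 4.42 CPM in nmSC replicate 2 and at 3.46 to 3.58 in the others.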

How the results depend on the processing

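Between mSC and nmSC the counts of genes higher in mSC and in nmSC, 6 and 24, became 3 and 14 with a filter of at least 50 counts in 4 libraries, which tested 25 of the genes, 2 and 48 with library size alone and 3 and 33 with library size without the 50 top genes. Leaving out one library at a time gave 4 to 8 and 18 to 25. Between allSC and mSC the counts of 12 and 2 became 24 and 1 with library size alone, and 9 to 13 and 2 to 3 without one library. The 3 genes higher in nmSC than in allSC became 5 with DESeq2's Wald test or the stricter filter, 6 when only the gates compared were fitted or without the 50 top genes and 10 with library size alone, and 2 to 6 without one library (5 without mSC replicate 1, 6 without mSC replicate 4). Genes above background in mSC went from 20 to 31 with the mean transcript length, and to between 19 and 20 without one library. The cause of these changes was not tested. With the subject number as a replicate block the counts were 5 and 21, 11 and 2, and 2 and 3; Kcnab1 lost its call and Kcnj12 gained one.

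The sign turned for these uncalled genes, given as log2 fold changes between mSC and nmSC. With library size alone Kcnj10 was at -0.32, Kcna1 at -0.53, Kcnrg at -0.40 and Kcnk13 at -0.31. Without the 50 top genes they were at -0.12, -0.33, -0.21 and -0.11. With the stricter filter Kcna1 was at -0.12 and Kcnrg at -0.010. With DESeq2's Wald test Kcnab2 was at 0.0018 and Kcnmb4 at 0.040; Kcnmb4 was at 0.044 with DESeq2 size factors and at 0.014 with no filter. Leaving out one library gave -0.19 to 0.016 for Kcnab2 (positive without nmSC replicate 1), -0.0069 to 0.081 for Kcna1 (negative without nmSC replicate 2), -0.19 to 0.085 for Kcnmb4 (positive in 5 of the fits) and -0.043 to 0.29 for Kcnrg (negative without mSC replicate 1 or nmSC replicate 2). Over the alternatives of the named genes, 430 values kept direction and side of the threshold, 23 turned sign, 13 gained a call and 10 lost one. Low counts limit the genes near the floor, where a miss of the threshold does not show equal levels.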
